A study of Mus musculus with 9 samples.

Results

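Fibroblast growth factors (FGFs) and their receptors were examined as the 55 probes, out of 41174 mouse probes on the array, whose gene name in the scanner files of the Fzd8-CRD group began with Fgf and whose spots were not controls. These probes carried 30 of 27845 gene names: 17 secreted ligands with 24 probes, 4 intracellular homologous factors (Fgf11 to Fgf14) with 10 probes, 2 FGF binding proteins with 3 probes, 5 receptors (Fgfr1 to Fgfr4 and Fgfrl1) with 14 probes, and 2 genes named only for gene fusions with Fgfr1 (Fgfr1op and Fgfr1op2) with 4 probes. The rule uses names and no measured value, and 53 of the 55 probes also carried an Fgf name in the control group's files. The other 2, of Fgfbp3, had an older name there.

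Secreted FGFs bind heparan sulphate chains and receptor tyrosine kinases on neighbouring cells, and the activated receptors signal through docking proteins to the Ras and MAP kinase cascade, which in turn raises inhibitors of its own activity. In the mammary gland, ligands made by the stroma, such as Fgf10 and Fgf7, act on an epithelial form of Fgfr2, which bud formation and branching need. Fgf3 and Fgf8 are among the genes near which mouse mammary tumour virus (MMTV) has integrated in mammary tumours, and an activated Fgfr1 in the mammary epithelium of mice produces growths of that epithelium.

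RNA came from freshly isolated GFP- cells, sorted by flow cytometry from mouse mammary tumours described as MMTV Wnt-1 and MMTV-Her2, in which the MMTV promoter drives Wnt1 or the receptor Her2 (Erbb2). The 5 arrays of the Fzd8-CRD group held cells exposed to Fzd8-CRD, a soluble inhibitor made from the cysteine-rich part of the Wnt receptor Frizzled 8, which takes up Wnt ligands, and the 4 control arrays held tumour cells without it according to the study's design. The same tumour description stands for every array, so the tumour models could not be separated, and the treatment note names the inhibitor for all 9 arrays. Dose, duration, animal age, strain and what the controls received were not given in the sources used here. Each array carried cell RNA in Cy5 (red) and a pooled reference RNA in Cy3 (green), which the labels call mouse RNA in some fields and human RNA in another, so levels relative to it are not firm. Each value below is the log2 ratio of Cy5 to Cy3, so a value of 0 means equal signal. The design calls the samples biological replicates, and the p-values measure only the spread between these samples. In bulk RNA, fewer cells of a type and less RNA per cell cannot be told apart.

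By the scanner's flag for red signal well above background, 52.4% to 60.0% of probes passed on each Fzd8-CRD array and 63.8% to 70.8% on each control array, and of the FGF probes 29 to 32 against 35 to 38. The Fzd8-CRD arrays lay on 4 slides and the controls on 1 other, and the scans of the Fzd8-CRD arrays came 367 to 378 days after those of the controls, with design files of builds mm8 and mm7. Slide, scan time and group cannot be told apart. The reference channel alone differed between groups for 57.8% of probes. Control replicate 2 stood apart from the other arrays (correlation with them between 0.602 and 0.728 across probes). Relative to each gene's mean, it had the highest median level of the erythrocyte, lymphocyte, endothelial, pericyte, fibroblast, macrophage and adipocyte marker lists. The luminal and basal lists were not highest there. The 5 measured erythrocyte markers had a median log2 Cy5 signal of 6.99 to 8.74 on Fzd8-CRD arrays and 11.0 to 17.7 on control arrays. Among 19 endothelial markers 18 fell, with a median difference of -1.76, where 8.01% of all genes fell. Falls were called for 4 of 9 pericyte, 3 of 14 fibroblast, 3 of 16 luminal and 3 of 5 erythrocyte markers. In the macrophage list 1 of 12 fell, and in the adipocyte list 1 of 4. In the lymphocyte list 1 of 14 fell and 1 rose. In the basal list 4 of 12 rose and none fell. The part of these cell types in the results below was not tested.

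The results on Fgfr1, Fgfr4, Fgf8 and Fgf11 turn on differences between probes of 1 gene, and 6 of these probes are given 5′ to 3′ as the scanner files list them, with positions in build mm8. The Fgfr1 probes are shown because overlapping 60-base probes at the 3′ end of that gene read differently on 1 array. Capitals mark the single base at which the overlapping pair differs.
Fgfr1 A_51_P109469: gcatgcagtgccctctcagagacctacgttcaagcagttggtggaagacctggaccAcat
Fgfr1 A_52_P668810: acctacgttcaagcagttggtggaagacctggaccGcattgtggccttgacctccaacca
The first lies at chr8:27039115-27039174 and the second at chr8:27039136-27039195, both on the plus strand. The pair share 39 bases with the substitution A57G, counted from 1 at the 5′ end of A_51_P109469.

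A pair of Fgfr4 probes and an Fgf8 probe are shown because control replicate 2 was far from the other controls at Fgfr4 and at the other Fgf8 probe. An Fgf11 probe is shown because it did not pass the test while the other Fgf11 probe did. These have no capitals.
Fgfr4 A_52_P686383: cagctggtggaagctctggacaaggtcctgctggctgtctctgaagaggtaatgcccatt
Fgfr4 A_52_P144363: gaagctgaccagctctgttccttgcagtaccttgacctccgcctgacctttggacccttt
Fgf8 A_52_P296244: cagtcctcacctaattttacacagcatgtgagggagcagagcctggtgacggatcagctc
Fgf11 A_51_P517706: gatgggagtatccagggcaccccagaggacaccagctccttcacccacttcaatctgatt
The Fgfr4 probes lie at chr13:55177486-55177545 and chr13:55177621-55177680 on the plus strand, the Fgf8 probe at chr19:45794922-45794981 on the minus strand, and the Fgf11 probe within chr11:69615634-69615903 on the minus strand.

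Of the 55 probes, 37 were kept for testing, which needed Cy5 signal well above background on at least 4 of the 9 arrays and no missing array. They covered 23 of the 30 genes. With limma and Benjamini-Hochberg adjustment over all 26723 kept probes, 3 FGF probes rose and none fell: 2 of Fgfr1 and 1 of Fgf11. Across all kept probes 14.7% were called (6.8% higher and 7.86% lower in the Fzd8-CRD group), so 3 of 37 FGF probes is no more than the array as a whole. The median difference of the 37 was 0.10, against -0.06 over all kept probes. The groups did not overlap for 4 of the 37 (the 3 called and Fgf15), where 19.2% of all kept probes did not overlap. At an unadjusted p under 0.05 there were 8 FGF probes, against 32.2% of all kept probes. Of the 37, 4 ligand probes were kept through the controls alone, and these lean the counts and the median towards lower values.

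**Figure D1:**
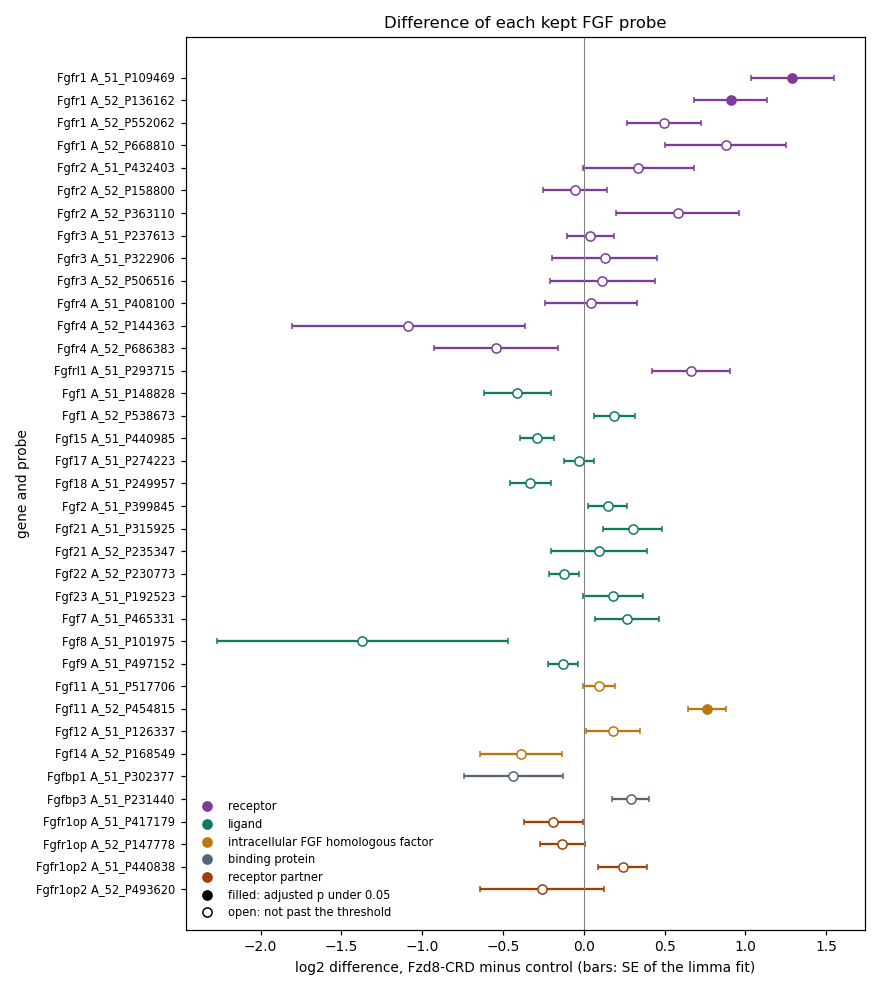
The log2 difference of each of the 37 kept FGF probes, Fzd8-CRD minus control, on the horizontal axis, with bars for its standard error and colour for the class of gene. Filled points passed the adjusted threshold of 0.05: Fgfr1 A_51_P109469 at 1.29, Fgfr1 A_52_P136162 at 0.91 and Fgf11 A_52_P454815 at 0.76, all to the right of 0. Fgf15, Fgf17, Fgf22 and Fgf9 were above background in controls only, so their points have no firm size.

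Among the secreted ligands no probe passed the test. Of 24 ligand probes 13 were kept, 9 with signal above background in both groups and 4 (Fgf15, Fgf17, Fgf22 and Fgf9) through the controls alone. The scanner's own log ratio, which takes no offset, gave other calls for some ligands: Fgf23 A_51_P192523 at 1.42 (limma adjusted p 0.0109) and Fgf1 A_52_P538673 at 1.38 (limma adjusted p 0.0221). It also called Fgf15, Fgf9 and Fgf22 lower in the Fzd8-CRD group. Their Fzd8-CRD signal stood at background and they were kept through the controls alone, so no size is given for them. Fgf8, a ligand of embryonic patterning, had the widest range. On its probe with 10 spots an array, A_51_P101975, Fgf8 read 0.84, 1.32, 0.58, 0.57 and 0.44 on Fzd8-CRD arrays 1 to 5, against 1.32, 5.64, 0.76 and 0.76 on control arrays 1 to 4. Control replicate 2 was far above the other 8 arrays, while the rest of the groups overlapped. The 10 spots on that array lay between 5.56 and 5.81, with a spot SD of 0.067, so the high reading was shared by every spot. The reference channel of the probe was 7.18 there, against 6.87 to 6.98 on the other controls (log2 signal), so the Cy5 channel carried the reading. The difference was -1.37 (SE 0.90, limma adjusted p 0.317) with all arrays and -0.20 (SE 0.22, limma adjusted p 0.569) without control replicate 2. The other Fgf8 probe, A_52_P296244, was well above background on no array and read 0.12 on control replicate 2.

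**Figure D2:**
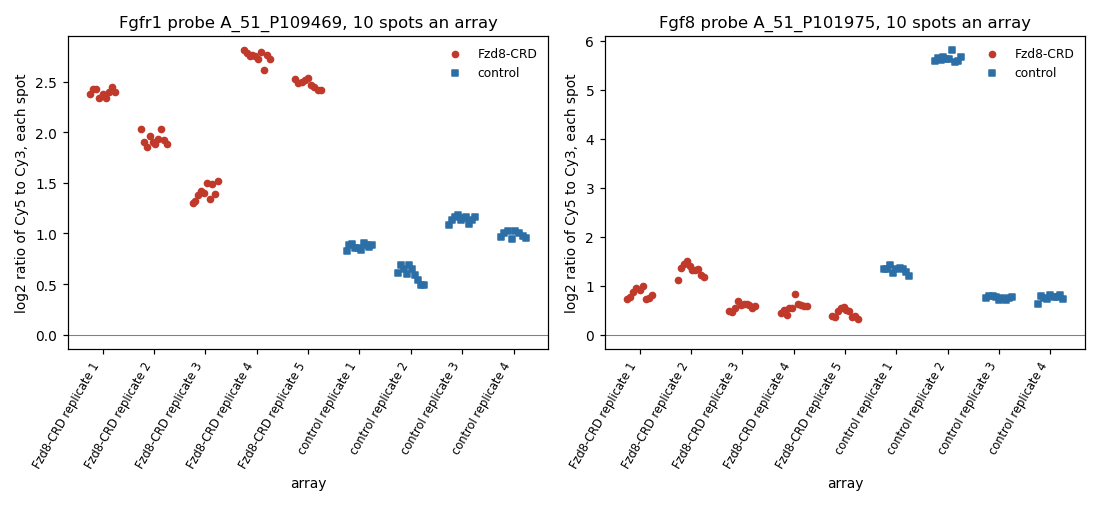
Every spot of the 10-spot probes of Fgfr1 (left panel) and Fgf8 (right panel) on each array, as the log2 ratio of Cy5 to Cy3, with Fzd8-CRD arrays as circles and control arrays as squares. Spots of 1 array lie close together, with a spot SD of 0.026 to 0.075 for Fgfr1 and 0.032 to 0.12 for Fgf8, and Fgf8 on control replicate 2 sits between 5.56 and 5.81.

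Fgf15, Fgf21 and Fgf23 are the endocrine ligands, which act on distant organs through klotho co-receptors. Fgf15 read 0.13, 0.22, 0.12, 0.05 and 0.04 on Fzd8-CRD arrays against 0.24, 0.46, 0.57 and 0.32 on control arrays. Its signal passed the background flag on 0 of 5 Fzd8-CRD and 4 of 4 control arrays, so the Fzd8-CRD values stand at background, the probe was kept through the controls alone, and no difference or fold is given. Fgf21 was measured on every array, and its 2 probes gave 0.30 and 0.10 (limma adjusted p 0.281 and 0.848). For the second, A_52_P235347, Cy5 alone gave 0.955 (limma adjusted p 0.0794). Its reference channel was also higher in the Fzd8-CRD group, by 0.84 (limma adjusted p 4.5e-07). The ratio of this Fgf21 probe thus depends on both channels. Fgf23 probe A_51_P192523 gave 0.18 (limma adjusted p 0.516), and its second probe was above background nowhere.

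Fgf18, a relative of Fgf8 with roles in bone and lung, read -0.86, -0.80, -0.52, -0.63 and -0.63 on Fzd8-CRD arrays against -0.65, -0.35, -0.22 and -0.22 on control arrays. The groups overlapped only through control replicate 1, and the difference was -0.33 (SE 0.13, limma adjusted p 0.113). Fgf17, of the same subfamily, was above background on 0 of 5 Fzd8-CRD and 4 of 4 control arrays. Fgf22, of the Fgf7 and Fgf10 subfamily, and Fgf9, a ligand of mesenchymal receptors, had the same 0 of 5 and 4 of 4. These 3 probes were kept through the controls alone, so no fold is given for Fgf9, Fgf17 or Fgf22.

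Fgf7, the keratinocyte growth factor that stroma supplies to epithelium, read -2.76, -2.62, -2.70, -3.01 and -1.99 on Fzd8-CRD arrays against -3.06, -2.96, -2.88 and -2.62 on control arrays. Cy5 was far below Cy3 on every array, though well above background on all 9. The groups overlapped, with a difference of 0.27 (SE 0.20, limma adjusted p 0.374). Fgf10, the other stromal ligand of epithelial Fgfr2, was well above background in Cy5 on no array with its 10-spot probe, while the reference channel was above background on all 9. Fgf1, which can bind all the receptors, was above background on all 9 arrays with both probes, and these gave -0.41 and 0.19 (limma adjusted p 0.199 and 0.332). Fgf2, a heparin-binding growth factor of many tissues, was above background on 2 of 5 Fzd8-CRD and 2 of 4 control arrays, with a difference of 0.15 (limma adjusted p 0.411).

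Fgf3, Fgf5, Fgf6, Fgf16 and Fgf20 were well above background in Cy5 on no array. Fgf3 and Fgf15 lie 57.8 kb apart on chromosome 7 and Fgf6 and Fgf23 lie 45.4 kb apart on chromosome 6 by their mm8 probe positions, and in each pair only the second had Cy5 signal above background on any array. In all, 11 of the 24 ligand probes were above background nowhere, which is a statement about these spots and not about absence of the transcript.

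**Figure D3:**
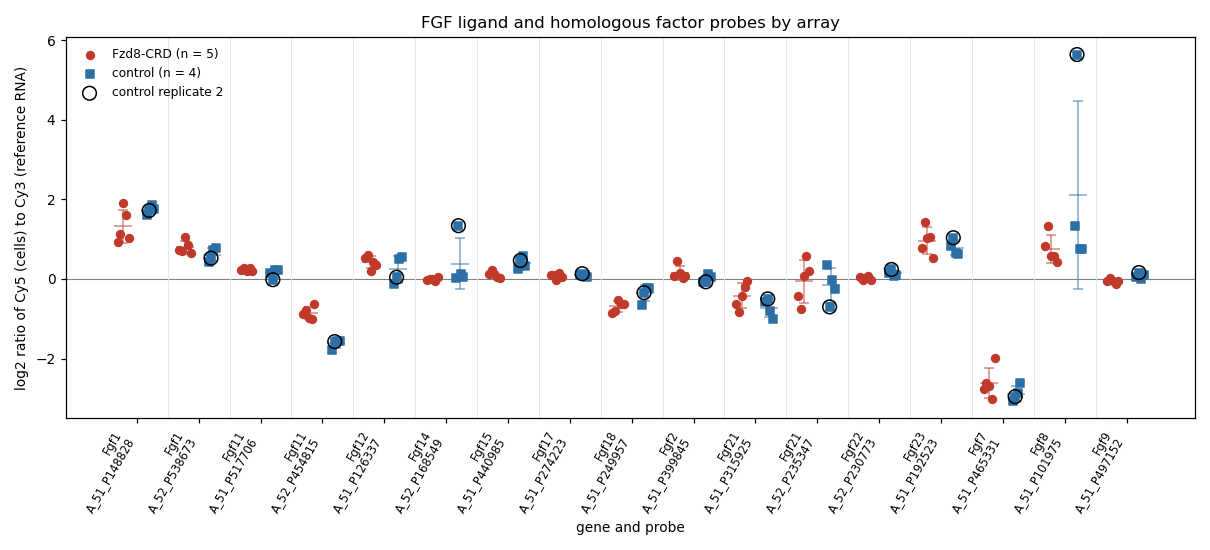
The log2 ratio of Cy5 to Cy3 for each kept probe of a ligand or homologous factor, with Fzd8-CRD arrays (circles, n = 5) left of control arrays (squares, n = 4), a dash for each mean and bars for SD, and control replicate 2 ringed. Fgf11 A_52_P454815 has every Fzd8-CRD point above every control point, and Fgf8 has 1 control point at 5.64.

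The homologous factors Fgf11 to Fgf14 stay inside the cell, where they bind voltage-gated sodium channels and are not known to act as growth factors. Fgf11 probe A_52_P454815, at chr11:69612453-69612512 on the minus strand of mm8, read -0.88, -0.78, -0.99, -1.01 and -0.62 on Fzd8-CRD arrays against -1.77, -1.58, -1.57 and -1.56 on control arrays. All 5 Fzd8-CRD arrays were above all 4 controls, and the difference was 0.76 (SE 0.12, limma adjusted p 0.00577). In Cy5 alone it was 0.42 (limma adjusted p 0.0426). The other Fgf11 probe, A_51_P517706, whose sequence is given above, did not follow. It read 0.24, 0.27, 0.20, 0.27 and 0.20 on Fzd8-CRD arrays against 0.14, -0.02, 0.23 and 0.21 on control arrays, with a difference of 0.09 (SE 0.10, limma adjusted p 0.529). The call on A_52_P454815 was lost under median centring, with a difference of 0.79 (limma adjusted p 0.0503), and under scaling between arrays, where the difference was 0.24 (limma adjusted p 0.279).

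Of the other homologous factors, Fgf12 probe A_51_P126337 gave 0.18 (limma adjusted p 0.466) and was above background on 4 of 5 Fzd8-CRD and 2 of 4 control arrays. Fgf14 probe A_52_P168549 read -0.04 to 0.05 on Fzd8-CRD arrays, against 1.34 on control replicate 2 and 0.03 to 0.12 on the other controls. Its difference of -0.39 (limma adjusted p 0.312) was -0.07 without that array. The probe was above background on 1 of 5 Fzd8-CRD and 4 of 4 control arrays, so most Fzd8-CRD values stand at background. Fgf14 probe A_51_P242460 was above background on 1 of 5 Fzd8-CRD and 0 of 4 control arrays, and A_52_P1011 nowhere, and neither was tested. The 3 probes of Fgf13 were above background on at most 2 of 9 arrays and were not tested.

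The binding proteins release FGFs from the matrix. Fgfbp3 read -0.35, -0.31, -0.38, -0.49 and -0.15 on Fzd8-CRD arrays against -0.57, -0.46, -0.79 and -0.68 on control arrays. The groups overlapped through 1 array of each, and the difference was 0.29 (SE 0.12, limma adjusted p 0.116). This probe, A_51_P231440, was above background on 2 of 5 Fzd8-CRD and 4 of 4 control arrays, and its reference channel differed by 0.24. From the scanner's log ratio it gave -0.09 (limma adjusted p 0.874). The second Fgfbp3 probe was above background nowhere. Fgfbp1 gave -0.44 (SE 0.31, limma adjusted p 0.349), with 0.87 on Fzd8-CRD replicate 3 and between -0.36 and -0.16 on the other Fzd8-CRD arrays.

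Among the receptors, 2 of 14 probes passed the test, near the 14.7% of all kept probes, and both were of Fgfr1. Fgfr1, the receptor of mesenchymal and many tumour cells, read 2.39, 1.93, 1.41, 2.75 and 2.48 on Fzd8-CRD arrays against 0.87, 0.60, 1.14 and 0.99 on control arrays with the 10-spot probe A_51_P109469. Every Fzd8-CRD array was above every control, and Fzd8-CRD replicate 3 was the lowest of its group. The difference was 1.29 (SE 0.26, limma adjusted p 0.0132). In Cy5 alone it was 1.82 (limma adjusted p 0.00608), with 0.29 in Cy3, so the cell channel carried it.

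Fgfr1 probe A_52_P136162 read 1.54, 1.17, 0.81, 1.68 and 1.75 on Fzd8-CRD arrays against 0.07, 0.38, 0.79 and 0.68 on control arrays. The groups did not overlap, although Fzd8-CRD replicate 3 and control replicate 3 lay 0.81 against 0.79. The difference was 0.91 (SE 0.23, limma adjusted p 0.0286). Probe A_52_P668810, which overlaps A_51_P109469, read 2.32, 1.94, 1.13, 2.76 and 2.52 on Fzd8-CRD arrays against 0.85, 2.19, 1.06 and 0.92 on control arrays. On Fzd8-CRD arrays it tracked its overlapping partner, and on control replicate 2 it read 2.19 where the partner read 0.60. Its difference was 0.88 (SE 0.37, limma adjusted p 0.137), and 1.19 (SE 0.33, limma adjusted p 0.0389) without control replicate 2. The fourth probe, A_52_P552062, lies 41.3 kb before A_51_P109469 and read 1.65, 1.38, 0.62, 1.75 and 1.22 on Fzd8-CRD arrays against 0.72, 0.57, 1.11 and 0.93 on control arrays. The groups overlapped through Fzd8-CRD replicate 3, and the difference was 0.50 (SE 0.23, limma adjusted p 0.168).

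All 4 Fgfr1 probes were thus above 0 in difference, and 2 passed the test. A_51_P109469 kept its call with each of the 9 arrays left out and lost it, with a wider difference, under median centring (1.42, limma adjusted p 0.0658) and scaling between arrays (2.07, limma adjusted p 0.0595). Fgfr1 A_52_P136162 also lost its call without Fzd8-CRD replicate 1, 4 or 5 or control replicate 1 (limma adjusted p 0.0597 to 0.0682). When each gene was represented by its brightest probe, which for Fgfr1 is A_52_P668810, no receptor was called. The basal and myoepithelial marker list was also higher: 4 of its 12 genes rose, against 6.87% of all genes, with a median difference of 0.79. Its median log2 Cy5 signal was 13.4 to 14.9 on Fzd8-CRD arrays against 12.7 to 13.7 on control arrays. Relative to each gene's mean, this list was lowest within the Fzd8-CRD group on replicate 3, at -0.19, and Fgfr1 was also lowest there. The list was at 0.35 to 0.59 on the other Fzd8-CRD arrays and at -0.61 to -0.22 on the control arrays. Otherwise the order of arrays differed. The list was highest on replicate 2, at 0.59, where Fgfr1 A_51_P109469 read 1.93. That probe was highest on replicate 4, at 2.75, where the list was at 0.39. The FGF feedback and target list was lowest on replicate 3 as well, at -0.165. So were the fibroblast marker list, at -0.82, and the FGF co-receptor and heparan sulphate list, at 0.025. Each of the remaining lists was lowest on another Fzd8-CRD array. The part of basal and myoepithelial cells in the Fgfr1 result was not tested.

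**Figure D4:**
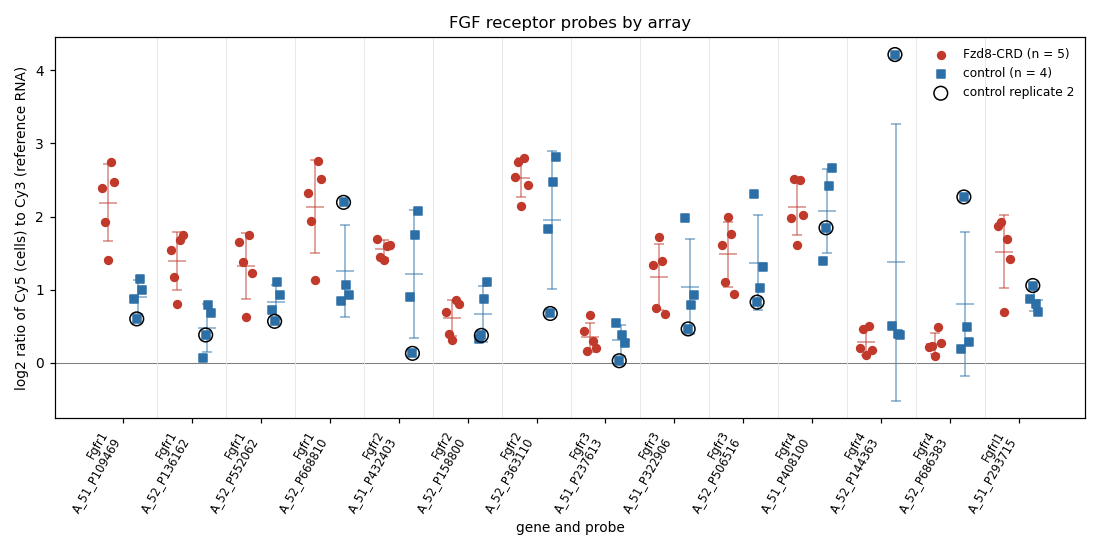
The log2 ratio of Cy5 to Cy3 for the 14 receptor probes, with Fzd8-CRD arrays (circles, n = 5) left of control arrays (squares, n = 4), a dash for each mean and bars for SD, and control replicate 2 ringed. The Fzd8-CRD points of Fgfr1 A_51_P109469 lie between 1.41 and 2.75 and its control points between 0.60 and 1.14, while control replicate 2 reads 4.22 and 2.27 at a pair of Fgfr4 probes.

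Fgfrl1, a receptor-like protein with no tyrosine kinase domain, read 1.87, 1.93, 0.69, 1.69 and 1.42 on Fzd8-CRD arrays against 0.87, 1.06, 0.81 and 0.69 on control arrays. As for Fgfr1, Fzd8-CRD replicate 3 was the lowest of its group, and it alone lay within the control range. The difference was 0.66 (SE 0.24, limma adjusted p 0.0915), and 0.87 (limma adjusted p 0.0126) without Fzd8-CRD replicate 3. Fgfrl1 was called in 6 of 21 other settings, with differences of 0.56 to 1.17 (limma adjusted p 0.00566 to 0.181).

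Fgfr2, whose epithelial form receives the stromal ligands, passed the test with none of its 3 probes. The 10-spot probe A_51_P432403 read 1.70, 1.44, 1.41, 1.59 and 1.62 on Fzd8-CRD arrays against 0.90, 0.13, 1.75 and 2.08 on control arrays. The Fzd8-CRD arrays lay close together and inside the wide control range, with a difference of 0.34 (SE 0.34, limma adjusted p 0.516). A_52_P363110 had the same shape, at 2.54, 2.75, 2.14, 2.80 and 2.43 on Fzd8-CRD arrays against 1.83, 0.67, 2.47 and 2.82 on control arrays, with a difference of 0.58 (SE 0.38, limma adjusted p 0.315). In both, control replicates 1 and 2 were below every Fzd8-CRD array and control replicate 4 was above every one. A_52_P158800 read 0.70, 0.39, 0.31, 0.86 and 0.80 on Fzd8-CRD arrays against 0.33, 0.37, 0.87 and 1.10 on control arrays, with a difference of -0.06 (SE 0.20, limma adjusted p 0.867).

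Fgfr3, a receptor best known from bone growth and bladder cancer, overlapped between groups on all 3 probes. A_51_P322906 read 1.34, 0.75, 1.72, 1.39 and 0.66 on Fzd8-CRD arrays against 1.98, 0.46, 0.79 and 0.93 on control arrays, a difference of 0.13 (SE 0.32, limma adjusted p 0.807). A_52_P506516, which overlaps it by 37 bases with the substitution T28C (counted from the 5′ end of A_51_P322906), read 1.61, 1.10, 2.0, 1.77 and 0.95 on Fzd8-CRD arrays against 2.31, 0.83, 1.03 and 1.32 on control arrays, a difference of 0.12 (SE 0.32, limma adjusted p 0.830). In both, control replicate 1 was highest and control replicate 2 lowest. The third probe, A_51_P237613, read 0.43, 0.15, 0.65, 0.30 and 0.20 on Fzd8-CRD arrays against 0.54, 0.03, 0.38 and 0.27 on control arrays, a difference of 0.04 (limma adjusted p 0.868), and was above background on 3 of 5 Fzd8-CRD and 3 of 4 control arrays.

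Fgfr4, the receptor that Fgf15 acts through in liver, gave different pictures with different probes. A_51_P408100 read 1.98, 2.51, 1.61, 2.50 and 2.02 on Fzd8-CRD arrays against 1.39, 1.85, 2.42 and 2.67 on control arrays. The groups overlapped fully, with a difference of 0.05 (SE 0.28, limma adjusted p 0.928), but 1.25 (limma adjusted p 0.0268) for Fgfr4 A_51_P408100 from the scanner's log ratio. A_52_P144363 read 0.20, 0.46, 0.10, 0.50 and 0.18 on Fzd8-CRD arrays against 0.50, 4.22, 0.39 and 0.38 on control arrays. A_52_P686383 read 0.22, 0.23, 0.10, 0.48 and 0.27 on Fzd8-CRD arrays against 0.18, 2.27, 0.49 and 0.28 on control arrays. In the ratio, control replicate 2 stood alone on both, and not on A_51_P408100. The last starts 752 bases after A_52_P686383 in mm8, and A_52_P144363 starts 135 bases after it. The differences were -1.09 (SE 0.72, limma adjusted p 0.321) and -0.54 (SE 0.38, limma adjusted p 0.348) with all arrays, and -0.14 and -0.06 without control replicate 2. In Cy5 alone, A_52_P144363 had a log2 signal of 6.86 to 7.42 on Fzd8-CRD arrays and 7.69 to 11.65 on control arrays. Its reference channel was also lower in the Fzd8-CRD group, by 0.96 (limma adjusted p 1.0e-05). The ratio of this probe thus sets a higher Cy5 against a higher Cy3 in controls.

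Fgfr1op (now Cep43), a centrosomal protein found fused to FGFR1 in human blood cancers, gave -0.19 and -0.13 on its 2 probes (limma adjusted p 0.499 and 0.524). Fgfr1op2, another fusion partner of FGFR1 in human disease, gave 0.24 and -0.26 (limma adjusted p 0.305 and 0.669), with 1.44 on control replicate 2 for A_52_P493620 and -0.68 to -0.36 on the other controls. For the other Fgfr1op2 probe, A_51_P440838, Cy5 alone gave -0.62 (limma adjusted p 0.0224). Its reference channel was lower in the Fzd8-CRD group by more, at -0.84 (limma adjusted p 2.3e-07).

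Other genes of the pathway were taken from 3 lists, each gene by its brightest kept probe. Of 71 measured genes 9 rose and 2 fell, with a median difference of 0.33 against -0.07 over 18213 genes. The split was 12 and 0 without background correction and under scaling between arrays, 10 and 0 from the scanner's log ratio, 9 and 0 from the series table, and 0 and 0 under median centring. Across all genes 6.87% rose and 8.01% fell. Klb and L1cam passed the background flag on 0 of 5 Fzd8-CRD and 4 of 4 control arrays, and Spry4 on 5 of 5 and 0 of 4. These genes were kept through 1 group alone, and the medians include them. Calls among the 71 were sensitive to single arrays, numbering 4 to 12 as each array was left out: there were 5 once Fzd8-CRD replicate 1 was dropped, 6 on dropping Fzd8-CRD replicates 2 or 4 or control replicates 1 or 4, and 4 on dropping control replicate 3.

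Of 27 co-receptor and heparan sulphate genes 24 were measured, and 3 rose and 1 fell, with a list median of 0.35. Ext1, a polymerase of heparan sulphate chains, read 0.86, 0.75, 0.44, 1.24 and 1.08 on Fzd8-CRD arrays against -0.26, -0.28, 0.02 and -0.10 on control arrays, a difference of 1.03 (SE 0.17, limma adjusted p 0.00721). Every Fzd8-CRD array was above every control. Cdh2, the N-cadherin that binds Fgfr1 at the cell surface, rose by 1.36 (SE 0.37, limma adjusted p 0.0392). It was called in 11 of 21 other settings and gave 1.08 in Cy5 alone (limma adjusted p 0.056). Extl3, which starts heparan sulphate chains, rose by 0.46 (SE 0.11, limma adjusted p 0.0263), while its second probe gave 0.07. In Cy5 alone Extl3 gave 1.36 (limma adjusted p 0.000984), with 0.73 in Cy3. The size of its rise thus depends on the reference channel. Flrt3, a membrane protein that binds FGF receptors, fell by 1.04 (SE 0.25, limma adjusted p 0.0234) and by 1.26 without control replicate 2. That difference was 0.54 (limma adjusted p 0.508) under scaling between arrays. The 4 other members with the widest differences, Gpc3 at 0.94, Ndst2 at 0.75, Ndst1 at 0.71 and Sdc2 at 0.60, did not pass.

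All 26 signal transduction genes of the list were measured, and 4 rose and 1 fell, with a list median of 0.02. Braf, a kinase of the MAP kinase cascade, rose by 0.58 (SE 0.10, limma adjusted p 0.00935), and its other probes disagreed in sign. Stat3, a transcription factor that cytokine and growth factor receptors activate, rose by 1.05 (SE 0.29, limma adjusted p 0.0400), with 0.46 in Cy5 alone (limma adjusted p 0.201) and 0.34 on its second probe. Cbl, a ubiquitin ligase of activated receptors, and Sos1, the exchange factor of Ras, rose by 0.42 and 0.45 (limma adjusted p 0.0427 and 0.0479). Cbl was called in 5 of 20 other settings and Sos1 in 5 of 21, and Cbl gave 0.07 in Cy5 alone and 0.03 on its second probe. Gab1, a docking protein, fell by 0.96 (SE 0.18, limma adjusted p 0.0104), and gave -0.44 in Cy5 alone (limma adjusted p 0.153) and 0.14 under scaling between arrays. Rps6ka1 at 0.76, Plcg1 at 0.72, Crk at -0.67 and Pik3r1 at 0.63 had the widest differences among those that did not pass.

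Of 23 feedback inhibitors and transcriptional targets 21 were measured, and 2 rose and none fell, with a list median of 0.48. That median is the value of Spry4, which was above background in the Fzd8-CRD group alone. Spred1, an inhibitor of Ras activation, read 0.49, 0.78, -0.13, 0.52 and 0.48 on Fzd8-CRD arrays against -0.68, -0.45, -0.30 and -0.20 on control arrays, a difference of 0.84 (SE 0.19, limma adjusted p 0.0188), while its other probes gave -0.14 and 0.22. Fzd8-CRD replicate 3 was again the lowest of its group. Etv1, an ETS transcription factor induced by FGF signalling, rose by 0.95 (SE 0.28, limma adjusted p 0.0485) and was called in 9 of 21 other settings. Its relatives Etv4 and Etv5 in the same list gave -0.50 and 0.33 (limma adjusted p 0.516 and 0.62). Among those that did not pass, Ccnd1, the cyclin of cell cycle entry, gave -1.01 (limma adjusted p 0.0718), Dusp6, a phosphatase that switches off the MAP kinase Erk, gave 0.88 (limma adjusted p 0.167), Spred2 gave 0.86 (limma adjusted p 0.0529) and Egr1 gave 0.77 (limma adjusted p 0.238).

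**Figure D5:**
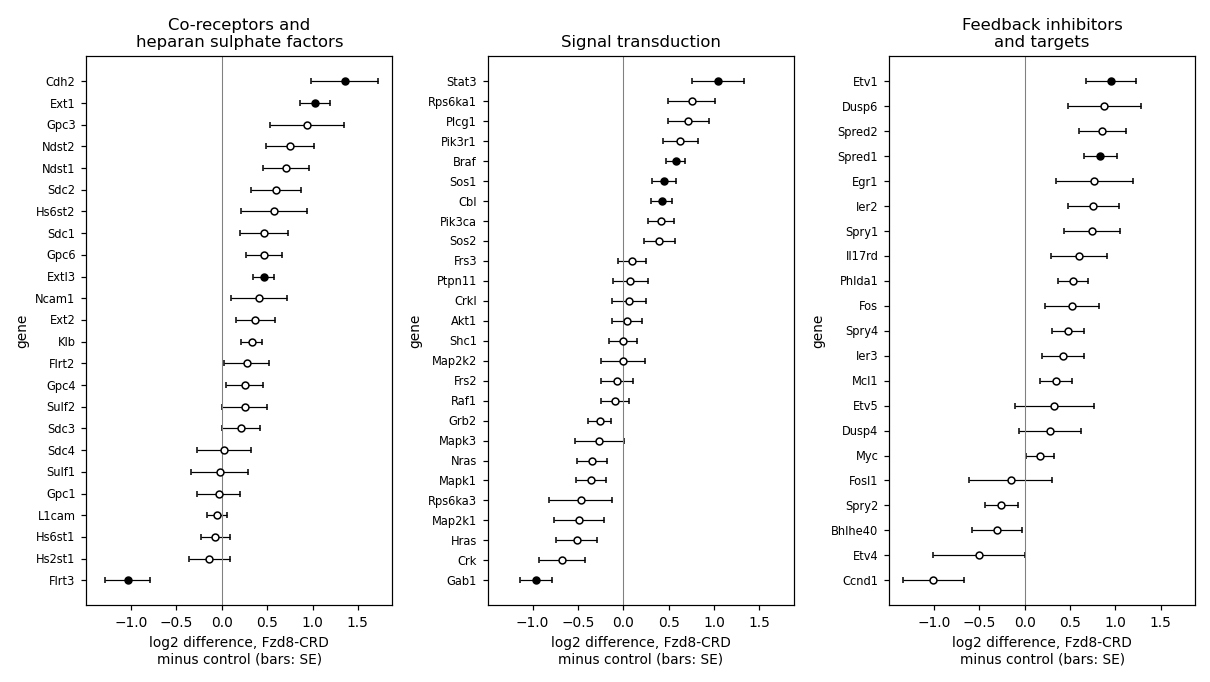
The log2 difference, Fzd8-CRD minus control, of each measured gene in the 3 pathway lists, with bars for its standard error. Filled points passed the adjusted threshold of 0.05. They run from Flrt3 at -1.04 to Cdh2 at 1.36.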

How the data were processed

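Cell RNA (Cy5) and pooled reference RNA (Cy3) were hybridised together on 9 Agilent arrays. The labels name the reference as mouse RNA, a pool of strains and human RNA in different fields. Numbers of replicates follow accession order and serve as names alone. Per the file headers the authors used Feature Extraction 9.5.3.1, which gave the deposited spot intensity of each channel, a log10 ratio and flags. A deposited series table holds linear ratio values, whose log2 matched the scanner's log ratio with a correlation of 1 on every array. Its column medians were 0.833 to 0.954, and its centring is not described. From the intensities, limma 3.58.1 in R 4.3.3 applied normexp (offset 50) and loess within arrays. The 1639 control spots had weight 0 and 1229 outlier values were left out. Spots of a probe were averaged. A probe was kept where 4 or more arrays had red signal well above background (26723 of 41174, 64.9%). The fit was lmFit and eBayes per probe on 5 Fzd8-CRD against 4 control arrays, with Benjamini-Hochberg adjustment and a threshold of 0.05. It was tested on simulated data. Other background corrections, normalizations, filters and array weights, Cy5 alone, slide as a random block and leaving out each array were tried as alternatives. For a probe above background in 1 group only, a bound was computed from channel means after Aquantile scaling, and none is reported. The number of arrays limits the precision. Names came from accessions through a RefSeq table (49 of 55 members) or from the symbol (6). Values on every array are printed for members past the threshold, for the 8 smallest p-values and for Fgfr1 to Fgfr4. Of each pathway list, members past the threshold and the 4 with the next widest differences are named, with a few others where they limit a result. 1 gene of the signal transduction list and 1 probe sequence are not reported here. The gene family and the lists were chosen with earlier results of these data known.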

Additional observations from a re-analysis of the deposited data

Results flagged for a closer look

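Dixon's test for a single distant value was applied to 120 groups of 4 or 5 arrays, and 12 groups had an array farther from the rest than its critical value allows. Chance gives about 5%, or 1 in 20 groups. Of the 12, 7 fell on control replicate 2. These were Fgf8 A_51_P101975 at 5.64 (other controls 0.76 to 1.32), Fgfr4 A_52_P144363 at 4.22 (0.38 to 0.50) and A_52_P686383 at 2.27 (0.18 to 0.49), Fgfr1 A_52_P668810 at 2.19 (0.85 to 1.06), Fgfr1op2 A_52_P493620 at 1.44 (-0.68 to -0.36), Fgf14 A_52_P168549 at 1.34 (0.03 to 0.12) and Flrt3 at 3.39 (4.21 to 4.37).

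Control replicate 1 was the distant array for Fgf11 A_52_P454815, at -1.77 (other controls -1.58 to -1.56), and for Sdc2, at -2.70 (-1.83 to -1.76). In the Fzd8-CRD group, Fgf2 A_51_P399845 read 0.46 on replicate 2 (others 0.04 to 0.15), Fgfbp1 read 0.87 on replicate 3 (-0.36 to -0.16) and Ndst1 read 1.21 on replicate 4 (2.04 to 2.36).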

How the results depend on the processing

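Counts below are of Fgf-numbered probes (ligands and homologous factors), receptor probes, all probes and pathway genes, which were 1, 2, 3916 and 11. They became 0, 0, 991 and 0 under median centring, 4, 4, 11025 and 31 with array weights, and 3, 4, 8030 and 26 with slide as a random block (consensus correlation -0.164). No slide held arrays of both groups, so the slide block cannot separate slide from group, and its counts do not strengthen any call. The slide block is among the settings counted for each probe below. The first 2 counts were 6 and 6 from the scanner's log ratio, 4 and 6 from the deposited series table, and 5 and 4 from Cy5 alone. Of the scanner's 6 Fgf-numbered calls 3 rose and 3 fell, and those that fell (Fgf15, Fgf9 and Fgf22) had Fzd8-CRD signal at background. Fgf-numbered probes numbered 2 with offset 16 and 3 with no filter on dim probes. Receptor probes numbered 0 under scaling between arrays and 0 by the brightest probe of each gene. The series table split the calls of all probes into 2118 higher and 1586 lower, against 1816 and 2100. Leaving out each array gave 1 to 2, 1 to 4, 1895 to 4617 and 4 to 12. The second Fgf-numbered call came without control replicate 1. Receptor calls were 4 without Fzd8-CRD replicate 3, 3 without control replicate 2 and 1 without Fzd8-CRD replicates 1, 4 or 5 or control replicate 1. All calls were 2181 without Fzd8-CRD replicate 1, 1895 without control replicate 3 and 2389 without control replicate 4. Pathway calls were 5 without Fzd8-CRD replicate 1, 4 without control replicate 3, and 6 without Fzd8-CRD replicates 2 or 4 or control replicates 1 or 4. Among values called in either setting, direction reversed for Fgfr2 A_52_P158800 (1.98 from both the scanner's ratio and the series table), Fgfr1op2 A_51_P440838 (-0.62 in Cy5 alone), and Flrt3 (0.54) and Gab1 (0.14) under scaling; the cause was not tested. Members called neither way changed sign in 28 more values under these settings and in 19 with an array left out, such as Fgf1 A_51_P148828 at 0.93 and Fgf7 A_51_P465331 at -0.28 from the scanner's log ratio. Fgfr1 A_51_P109469 was called in 18 of 20 settings (limma adjusted p 0.00113 to 0.0658), A_52_P136162 in 14 of 20 (0.00629 to 0.126) and Fgf11 A_52_P454815 in 19 of 21 (0.000219 to 0.279). No paired analysis was possible because the labels give no replicate numbers (those used here only name arrays). Signal over background limits the ligands, 11 of whose 24 probes were above it nowhere, and the homologous factors, with 4 of 10 probes kept.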
